A study of Mus musculus with 2 samples.

Results

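Wnt ligand genes were followed across the stromal cells of intestinal grafts, as 8 of the 28692 genes counted in each library. The members were Wnt4, Wnt5a, Wnt5b and Wnt11, which are usually grouped as non-canonical ligands, and Wnt2, Wnt2b, Wnt6 and Wnt9a, which are usually grouped as canonical ligands. They were chosen by symbol, with earlier results of these data known, and 19 Wnt ligand genes in all were present in the count tables.

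Single-cell RNA-seq had been performed on mesenchymal stromal cells (MSC) from 2 kinds of graft, with 1 library of each. Large intestine (LI) or small intestine (SI) of mid-gestation embryos of the strain EYFP (C57BL/6), whose cells carry a yellow fluorescent reporter, had been grown for 4 weeks beneath the kidney capsule of wild-type (WT) adults. The cells sorted were live, YFP+, Itgb1+ and negative for CD45, Ter119, BP3, CD31, EpCAM and L1CAM, and the labels call the tissues grafted colonic and grafted small intestinal lamina propria. The LI library was made from several pooled grafts. The names LI and SI are used below for these libraries. With 1 library per graft no test between grafts was possible, and chemistry (a 3′ or a 5′ kit, not stated per library), embryo and intestinal segment cannot be told apart.

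Wnt ligands are secreted, lipid-modified glycoproteins that bind Frizzled receptors on nearby cells. Canonical signalling, with Lrp5 or Lrp6 as co-receptor, keeps β-catenin from being degraded, and in the intestine it maintains stem cells at the crypt base. Non-canonical signalling acts through Ror or Ryk receptors on cell polarity and movement. Fibroblasts (FB) with high surface PDGFRα line the epithelium and are known as a source of bone morphogenetic proteins and non-canonical Wnts. Deeper fibroblasts are known for Grem1, an antagonist of bone morphogenetic proteins, and for R-spondins, which favour canonical signalling.

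The genes lie on 7 chromosomes of the GRCm38 build and are all annotated as protein coding. Wnt4 spans chr4:137277489-137299726 on the plus strand, Wnt5a chr14:28504750-28527448 (plus), Wnt5b chr6:119432531-119544347 (minus) and Wnt11 chr7:98835112-98855195 (plus). Of the canonical ligands, Wnt2 spans chr6:17988940-18030585 (minus), Wnt2b chr3:104945272-104961921 (minus), Wnt6 chr1:74771892-74785322 (plus) and Wnt9a chr11:59306928-59333552 (plus). Promoter windows of 300 bases, from 250 before to 50 after the start, were taken from RefSeq (GRCm38.p6), where 7 of the 8 ligands had an entry. The windows of Wnt4 (chr4:137277385-137277684, plus) and Wnt6 (chr1:74771642-74771941, plus) are shown because these ligands were highest in PDGFRAhi FB in both grafts. Those of Wnt2 (chr6:18030396-18030695, minus) and Wnt11 (chr7:98834862-98835161, plus) are shown because these were highest in adventitial-like FB. Both choices rest on the marker gates described below, and single clusters can differ. Capitals mark the motif letters found, which occurred among these 4 windows in that of Wnt11 alone, as a Tcf/Lef match at base 201 and a TATA box match at base 222, counted from 1 at the 5′ end.
Wnt4: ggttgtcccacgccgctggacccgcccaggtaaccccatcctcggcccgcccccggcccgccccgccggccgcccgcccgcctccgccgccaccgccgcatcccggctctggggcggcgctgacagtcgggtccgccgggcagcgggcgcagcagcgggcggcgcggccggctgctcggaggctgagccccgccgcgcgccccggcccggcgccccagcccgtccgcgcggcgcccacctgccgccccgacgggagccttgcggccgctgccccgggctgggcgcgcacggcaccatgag
Wnt6: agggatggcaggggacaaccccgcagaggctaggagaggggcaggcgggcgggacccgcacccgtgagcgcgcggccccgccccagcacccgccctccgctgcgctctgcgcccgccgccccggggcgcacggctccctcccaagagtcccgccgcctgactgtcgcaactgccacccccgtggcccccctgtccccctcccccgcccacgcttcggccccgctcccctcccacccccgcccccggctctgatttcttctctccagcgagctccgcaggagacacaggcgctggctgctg
Wnt2: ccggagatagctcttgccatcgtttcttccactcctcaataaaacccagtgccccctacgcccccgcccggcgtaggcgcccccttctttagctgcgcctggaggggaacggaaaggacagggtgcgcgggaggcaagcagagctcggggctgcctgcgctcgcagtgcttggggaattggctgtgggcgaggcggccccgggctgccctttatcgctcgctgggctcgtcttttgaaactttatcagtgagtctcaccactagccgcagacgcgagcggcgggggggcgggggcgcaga
Wnt11: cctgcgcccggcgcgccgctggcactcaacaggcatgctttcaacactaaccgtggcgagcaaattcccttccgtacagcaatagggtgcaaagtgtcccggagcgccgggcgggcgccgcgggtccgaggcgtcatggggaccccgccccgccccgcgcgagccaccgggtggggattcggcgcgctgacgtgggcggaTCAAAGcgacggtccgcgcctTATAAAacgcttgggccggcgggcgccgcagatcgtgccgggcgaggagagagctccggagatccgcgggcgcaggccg
The windows of Wnt4, Wnt6, Wnt2 and Wnt11 had a GC content of 84.3%, 76.7%, 65.7% and 71.3%, above the median of 52.7% over the 32851 mouse promoters and above their upper quartile of 61.7%. The motifs searched on both strands were the forkhead core TGTTTA, held by 13.4% of all promoters, the Gli site GACCACCCA, held by 0.253%, the Tcf/Lef core CTTTGA, held by 16.0%, and the TATA box TATAAA, held by 13.6%. The other window listed for Wnt11 (chr7:98838595-98838894, plus) had a GC content of 59.3% and held none of the 4 motifs. Of the other entries, 1 of the 3 windows of Wnt5b held a Tcf/Lef match, and those of Wnt2b and Wnt9a held none of the 4 motifs. A match is a run of letters and not a known binding site.

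The LI library held 11568 barcodes and 63348069 unique molecular identifiers (UMIs, each counted once per captured transcript), and the SI library 9631 barcodes and 54918006 UMIs. Cells were kept from 500 genes upward with no more than 10% of their UMIs from mitochondrial genes, 9873 (LI) and 7910 (SI), with medians of 5288 and 5682 UMIs, and 26 barcodes occurred in both libraries. The segment labels were checked on Hox genes: the posterior Hox genes (paralogues 9 to 13) summed to 297 counts per 1000000 UMIs (CPM) over all LI fibroblasts and 8.30 CPM over all SI fibroblasts. Levels are given as pooled CPM of a class with a 95% exact Poisson interval, and shares of cells with a 95% Clopper-Pearson interval. Both cover counting error only, not the spread between grafts.

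Each kept cell was assigned to a class by the number of marker genes with a UMI. PDGFRAhi FB, the subepithelial fibroblasts, had at least 4 of 8 markers (Pdgfra, Foxl1, F3, Bmp3, Bmp5, Bmp7, Sox6 and Nrg1), and numbered 546 cells (5.53% of kept cells) in LI and 374 (4.73%) in SI. Of these, 221 and 127 cells sat at exactly 4 markers. Cells with 1 marker fewer that passed no other lineage gate, 450 and 218, were kept apart as FB near the PDGFRAhi gate. The remaining fibroblasts were adventitial-like FB (702 and 505 cells; Pi16, Dpp4, Scara5, Sema3c, Cd55), Grem1 CD81 FB (1130 and 1413), Fgfr2 FB (1601 and 949) and FB of no subset gate (3031 and 1881). These 4 classes are pooled below as other FB, and with both PDGFRAhi groups they make 7460 and 5340 fibroblasts. The mural classes were pericytes (499 and 764), smooth muscle cells (451 and 550) and cells that passed both gates (70 and 239), and interstitial cells of Cajal (ICC, the pacemaker cells of the gut) numbered 341 and 51. The gates left 937 and 841 kept cells without a class. Since a gate counts detected markers it takes deeper cells, and the median was 8605.5 UMIs in LI adventitial-like FB against 5067 in LI Fgfr2 FB, so shares of cells are also given after each cell was thinned to 2000 UMIs. Cells that passed an immune gate (76 and 60, median 5539.5 and 6369 UMIs) were used as a reference for shares of cells, since the sort should have removed such cells. They are no Wnt-free background: 40 and 19 of them lay in the immune cluster of their library, the rest lay in fibroblast clusters, and they had a median of 5 of the 6 fibroblast markers. Of those in the immune cluster that reached 2000 UMIs, 0 of 27 (LI) and 1 of 15 (SI) had a thinned Wnt4 UMI, and 1 of 27 and 0 of 15 a Wnt5a UMI.

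Wnt4 and Wnt5a, both non-canonical ligands, held most of the Wnt signal of the graft stroma. In PDGFRAhi FB Wnt4 reached 500.5 CPM (476 to 525) in LI and 367 CPM (344 to 392) in SI. Wnt5a reached 270.2 CPM (253 to 289) and 427 CPM (401 to 454). Of the 9 stromal classes compared, both were highest in PDGFRAhi FB in both libraries, with no other class overlapping. Outside these classes, 19 SI cells that passed a mesothelial gate, 18 of them in a fibroblast cluster of no subset, had 552 CPM (459 to 658) of Wnt4. The order of the pair within PDGFRAhi FB differed between grafts, Wnt4 above Wnt5a in LI and Wnt5a above Wnt4 in SI. The SI order did not hold in the SI PDGFRAhi cluster, where the intervals of the pair overlapped, or in gated SI cells at exactly 4 markers, where Wnt4 was above Wnt5a. UMIs were not divided by transcript length because each transcript is tagged at 1 end, and capture can still differ between genes.

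**Figure D1:**
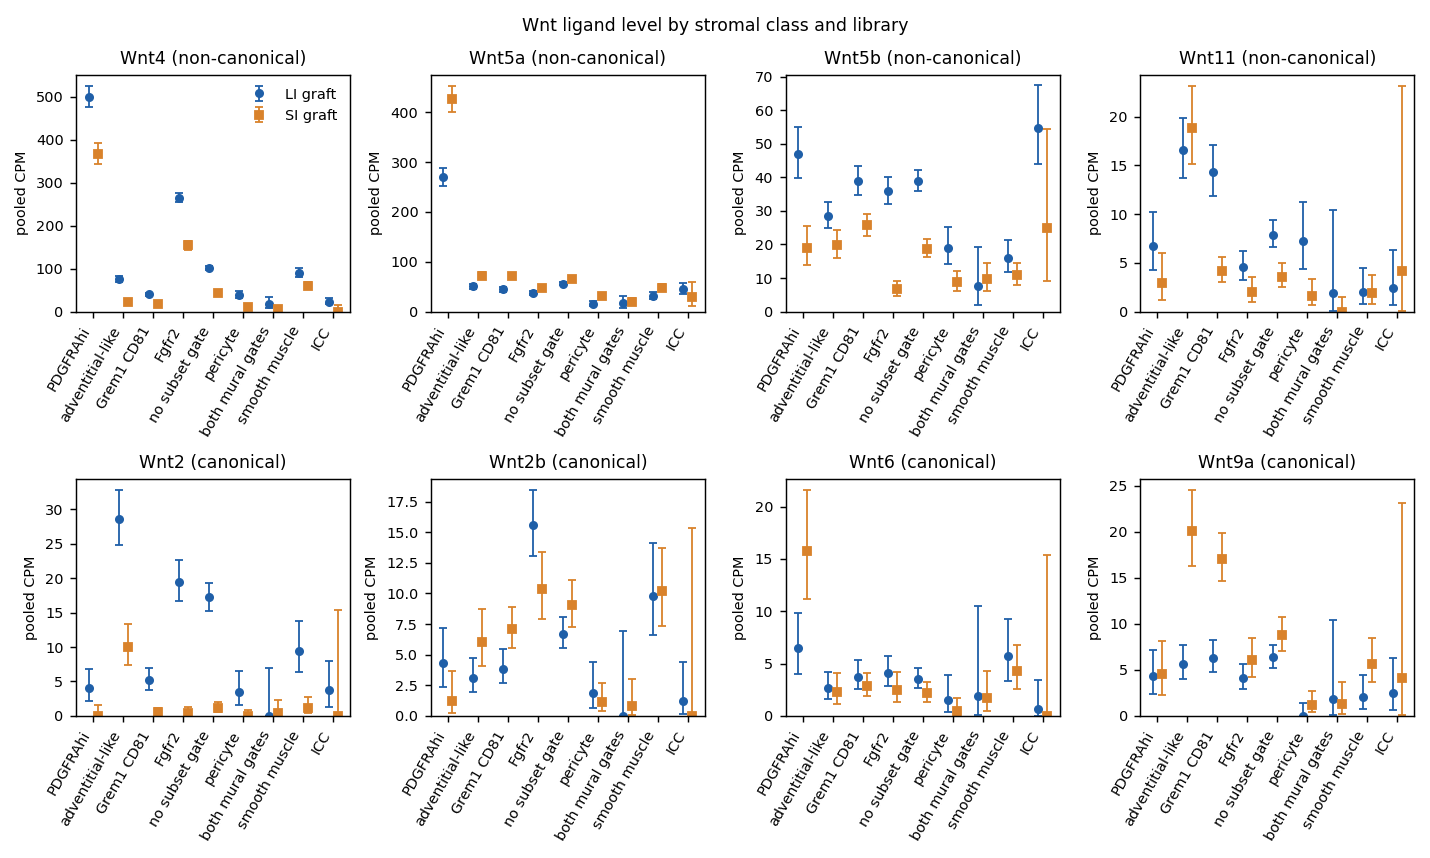
Pooled level (CPM, linear axes from 0 that differ between ligands) of each of the 8 ligands in the 9 stromal classes, by library. Points are 1 library each and bars are 95% Poisson intervals, and for Wnt4 and Wnt5a the PDGFRAhi FB stand above every other class in both libraries.

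Wnt4, a ligand with roles in kidney and reproductive tract development, followed a graded order. In LI Fgfr2 FB came second at 265 CPM (255 to 276), followed by FB of no subset gate at 101 CPM, smooth muscle at 90.1 CPM, adventitial-like FB at 76.2 CPM, Grem1 CD81 FB at 39.9 CPM, pericytes at 38.8 CPM and ICC at 23.4 CPM. In SI Fgfr2 FB were again second at 154 CPM (144 to 165), ahead of smooth muscle at 60.1 CPM and FB of no subset gate at 44.3 CPM, while adventitial-like FB had 23.2 CPM, Grem1 CD81 FB 16.9 CPM and pericytes 11.2 CPM. The level of SI Fgfr2 FB differed widely between clusters, as given below. Grem1 CD81 FB and pericytes did not differ beyond their intervals in LI. No Wnt4 UMI was found in 51 SI ICC, which at a floor of 3 counts allows a level of up to 12.5 CPM and up to 5.88% of cells with a UMI, so that Wnt4 was at least 4.17-fold lower there than in other FB. A Wnt4 UMI was detected in 73.3% of LI and 66.6% of SI PDGFRAhi FB, and in 51.8% (47.4 to 56.1) and 45.8% (40.6 to 51.1) after thinning. The thinned share of all immune-gated cells was 12.7% (5.65 to 23.5) and 9.62% (3.20 to 21.0). The thinned shares of LI Grem1 CD81 FB (4.20%) and LI adventitial-like FB (9.21%) were not above it. Thinned Fgfr2 FB were positive in 30.8% (LI) and 17.5% (SI), and the SI share lay inside the interval of the SI immune-gated cells.

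Fgfr2 FB were more numerous than PDGFRAhi FB and carried at least a like part of the Wnt4 signal. Of all Wnt4 UMIs in kept cells, 26.7% lay in Fgfr2 FB and 18.7% in PDGFRAhi FB of LI, against 24.1% and 24.8% in SI. For Wnt5a, PDGFRAhi FB held 23.1% (LI) and 24.7% (SI), and Fgfr2 FB held 8.48% and 6.36%.

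Wnt5a, the prototype non-canonical ligand, had a flatter profile outside PDGFRAhi FB than Wnt4 did. The other 4 fibroblast classes lay between 36.8 CPM (Fgfr2 FB) and 56.1 CPM (FB of no subset gate) in LI, and between 47.6 CPM (Fgfr2 FB) and 72.3 CPM (Grem1 CD81 FB) in SI. In both libraries Fgfr2 FB, second for Wnt4, had the lowest Wnt5a of the fibroblast classes. Pericytes had 15.6 CPM (LI) and 30.6 CPM (SI). Thinned PDGFRAhi FB were positive in 39.0% (LI) and 51.4% (SI) of cells, against 4.76% and 9.62% of immune-gated cells.

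PDGFRAhi FB were compared with the other FB of the same library by a log2 ratio of pooled CPM with 1 CPM added to each side, with an interval from the split of the UMIs. Wnt4 was 4.20-fold higher in LI (log2 2.06, 1.98 to 2.14) and 7.06-fold higher in SI (2.80, 2.68 to 2.91). Wnt5a was 5.56-fold (2.45, 2.34 to 2.57) and 6.54-fold higher (2.69, 2.58 to 2.80). Against Fgfr2 FB alone, Wnt4 was 1.89-fold (LI) and 2.38-fold (SI) higher, while Wnt5a was 7.35-fold and 8.97-fold higher. Against Grem1 CD81 FB, the Wnt4 difference was 12.6-fold (LI) and 21.7-fold (SI) and the Wnt5a difference 6.05-fold and 5.91-fold. Wnt4 thus separated PDGFRAhi FB most from Grem1 CD81 FB, and Wnt5a separated them most from Fgfr2 FB.

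Across all genes with at least 10 CPM on 1 side, a log2 ratio of at least 1 was taken as a call of size, with no test. In LI 450 of 8910 genes (5.05%) were higher in PDGFRAhi FB and 414 (4.65%) were lower. Of the 8 ligands 5 passed that level, of which Wnt4 and Wnt5a were higher and Wnt2 was lower. In SI 680 of 9055 genes (7.51%) were higher and 512 (5.65%) were lower, and of the 5 ligands that passed the level Wnt4, Wnt5a and Wnt6 were higher and Wnt9a was lower. Wnt6 passed only through PDGFRAhi FB, and Wnt2 (LI) and Wnt9a (SI) passed only through the other FB, so that a difference was built into their selection.

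Wnt5b, a close relative of Wnt5a, was not shared out in the same way. In LI it was highest in ICC at 54.7 CPM (43.9 to 67.3), overlapping PDGFRAhi FB at 46.9 CPM (39.8 to 55.0), and the other 4 fibroblast classes lay between 28.6 and 38.9 CPM. In SI it was highest in Grem1 CD81 FB at 25.6 CPM (22.6 to 29.0), overlapping ICC (24.9 CPM from 6 UMIs), adventitial-like FB and PDGFRAhi FB (19.0 CPM). SI Fgfr2 FB were lowest at 6.62 CPM (4.66 to 9.13). The log2 ratio of PDGFRAhi FB over other FB was 0.36 (0.11 to 0.59) in LI and 0.01 (-0.43 to 0.42) in SI, and the LI interval held 0 in female cells, after thinning, with TMM factors and as a mean of per-cell CPM.

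Wnt11, a ligand known for cell movement in gastrulation and for ureteric branching, was highest in adventitial-like FB at 16.5 CPM (13.7 to 19.8) in LI and 18.8 CPM (15.1 to 23.2) in SI. In LI Grem1 CD81 FB overlapped them at 14.3 CPM, but in SI Grem1 CD81 FB had 4.18 CPM (3.01 to 5.64). By cluster, LI Wnt11 was highest at 29.5 CPM (25.6 to 33.7) in a cluster of no subset led by Ctla2a and Cxcl9. A Grem1 CD81 cluster of LI had 20.8 CPM, and the LI clusters named adventitial-like had 14.1 and 8.65 CPM. In SI an adventitial-like cluster was highest, at 23.6 CPM (17.9 to 30.4). PDGFRAhi FB had 6.75 CPM (LI) and 2.90 CPM (SI), and their log2 ratios over other FB, -0.51 and -0.82, had intervals that held 0. In female cells they were 0.49 (-0.13 to 1.08) and 0.03, so no direction is given. Thinned shares were at most 3.99% in any of the 9 classes.

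The canonical ligands were lower than Wnt4 and Wnt5a in most classes. Wnt2, a β-catenin activating ligand of fetal lung and gut mesenchyme, was highest in adventitial-like FB, at 28.6 CPM (24.8 to 32.8) in LI and 10.0 CPM (7.41 to 13.3) in SI. In LI Fgfr2 FB followed at 19.5 CPM and FB of no subset gate at 17.2 CPM, while in SI these classes had 0.358 and 1.17 CPM. PDGFRAhi FB had 3.99 CPM (2.12 to 6.82) in LI, 4.30-fold below other FB (log2 -1.86), and 11 of the 13 UMIs lay in cells at exactly 4 markers. The log2 ratio was -3.23 with 1 marker more in the gate, -2.91 with clusters and -2.85 without the highest doublet scores. In SI no Wnt2 UMI was found in 374 PDGFRAhi FB, which at 3 counts allows up to 0.802% of cells with a UMI and puts Wnt2 at least 1.76-fold lower than in other FB. Pericytes of SI also had none in 764 cells, at least 3.12-fold lower. For SI PDGFRAhi FB the ratio interval held 0 with the looser filter, after thinning, as a mean of per-cell CPM and in female cells.

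Wnt2b, a ligand close to Wnt2 that supports intestinal stem cells, was highest in Fgfr2 FB at 15.6 CPM (13.1 to 18.4) and 10.4 CPM (7.88 to 13.4), overlapping smooth muscle at 9.83 and 10.2 CPM. It was lower in PDGFRAhi FB, by a log2 of -0.67 (-1.35 to -0.02) in LI, where the interval held 0 under the stricter cell filter, and -2.03 (-2.88 to -0.97, from 3 UMIs) in SI. Wnt9a, known from joint development, reached 20.1 CPM (16.3 to 24.5) in adventitial-like FB and 17.1 CPM in Grem1 CD81 FB of SI, but in LI none of the 9 classes exceeded 6.36 CPM and 6 classes overlapped the highest. No Wnt9a UMI was found in 499 LI pericytes, at least 5.03-fold lower than in other FB.

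Of the 4 canonical ligands followed, Wnt6 was the 1 that was highest in PDGFRAhi FB, at 6.44 CPM (3.99 to 9.84, 21 UMIs) in LI and 15.7 CPM (11.1 to 21.6, 38 UMIs) in SI. Its log2 ratio over other FB was 0.71 (0.10 to 1.29) and 2.27 (1.74 to 2.76), and the LI interval held 0 with 1 marker more in the gate, after thinning and with TMM factors. In LI 6 other classes overlapped PDGFRAhi FB, and in SI only ICC did, with 0 UMIs in 51 cells. By cluster, the LI PDGFRAhi cluster had 6.02 CPM (3.73 to 9.21) and was not the highest. The LI cluster led by Myoc and Angptl7 had 9.37 CPM (7.13 to 12.1) and a smooth muscle cluster 9.14 CPM (5.23 to 14.8), with overlapping intervals. In SI the ratio fell by 1.51 on the log2 scale when clusters took the place of the gates, and 53 of the 129 Wnt6 UMIs of all SI fibroblasts lay in a cluster led by Wif1 and Col7a1, described below, against 14 in the PDGFRAhi cluster.

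The highest class was the same in LI and SI for 6 of the 8 ligands. These were Wnt4, Wnt5a and Wnt6 in PDGFRAhi FB, Wnt11 and Wnt2 in adventitial-like FB, and Wnt2b in Fgfr2 FB. The exceptions were Wnt5b and Wnt9a. This count is that of the gates. Among single clusters, ones of another name had the highest pooled CPM for Wnt4, Wnt6 and Wnt2b in both grafts and for Wnt11 in LI. The highest class overlapped at least 1 other in both libraries for Wnt5b, Wnt9a, Wnt11, Wnt2b and Wnt6, and in SI for Wnt2, so for these the order of the leading classes is not settled by counting error.

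In PDGFRAhi FB non-canonical ligands made up 97.7% (97.1 to 98.3) of the UMIs of the 8 ligands in LI and 97.4% (96.6 to 98.1) in SI. In other FB they made up 86.4% (85.7 to 87.0) and 84.7% (83.7 to 85.7). The summed level of the non-canonical ligands was 824 CPM in LI and 816 CPM in SI PDGFRAhi FB, against 214 and 142 CPM in other FB. The summed level of the canonical ligands was 19.0 CPM (14.6 to 24.4) and 21.5 CPM (16.1 to 28.2) in PDGFRAhi FB, against 33.9 CPM (32.1 to 35.7) and 25.6 CPM (23.8 to 27.5) in other FB, so the sum of these 4 ligands was lower in PDGFRAhi FB of LI and not distinguishable at this depth in SI. It depends in SI on the ligands counted: Wnt10a, another canonical ligand, was 14.1 CPM in SI PDGFRAhi FB and 0.912 CPM in other FB, and with it the sums were 35.6 CPM (28.5 to 43.9) and 26.5 CPM (24.7 to 28.4), higher in PDGFRAhi FB. Adventitial-like FB had the lowest non-canonical share of the 5 fibroblast classes in both grafts, 81.1% (79.1 to 83.1) and 77.7% (74.7 to 80.5), with Wnt2 at 13.5% of their ligand UMIs in LI and Wnt9a at 11.6% in SI. The mixture of the non-canonical pair also differed between classes. Wnt4 was 68.8% (LI) and 67.1% (SI) of the ligand UMIs of Fgfr2 FB, but 25.4% and 11.5% of those of Grem1 CD81 FB.

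**Figure D2:**
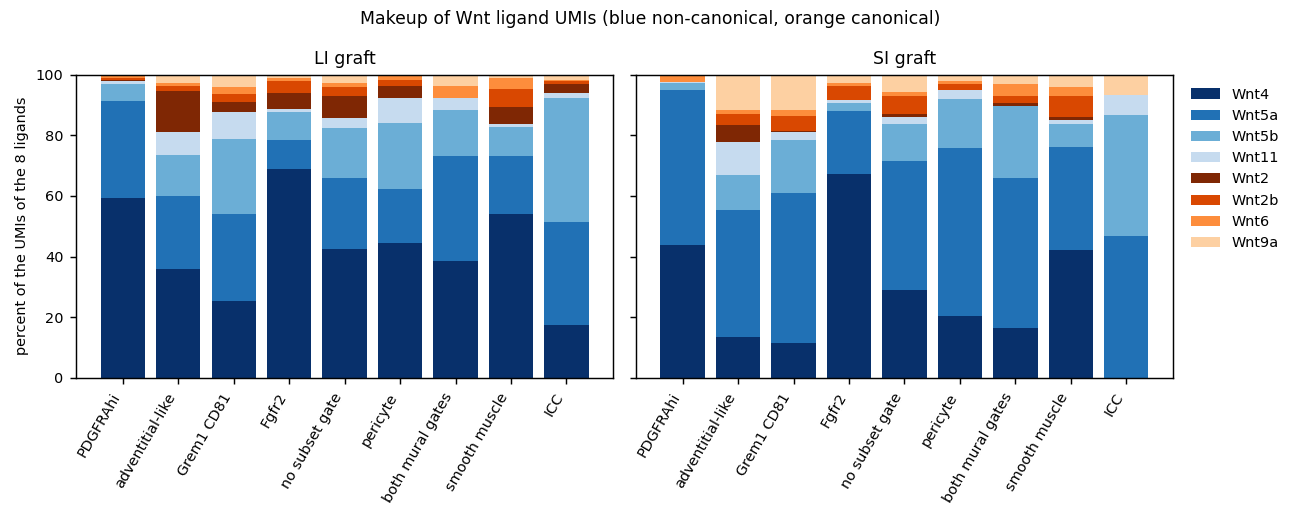
Share (percent) of the UMIs of the 8 ligands taken by each ligand in each stromal class of the LI and SI grafts, as stacked bars from 0 to 100. PDGFRAhi FB are mostly Wnt4 and Wnt5a, with canonical ligands at 2.25% (LI) and 2.57% (SI), and adventitial-like FB have the largest canonical share of the fibroblast classes.

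Wnt4 and Wnt5a varied differently with the number of PDGFRAhi markers in a fibroblast. In LI Wnt4 was 102, 101 and 165 CPM with 0, 1 and 2 markers, 333 CPM with 3, 492 CPM (454 to 531) with 4, and 509.8 and 503 CPM with 5 and with 6 or more. Wnt5a was 48.6, 47.2 and 50.9 CPM with 0, 1 and 2 markers, 102 CPM with 3, 179 CPM (157 to 204) with 4, 264 CPM with 5 and 396 CPM (358 to 438) with 6 or more. Wnt4 was thus level from the gate upward, while Wnt5a was higher at each further step. In SI Wnt5a again was 114 CPM with 3 markers and 283, 403 and 556 CPM (509 to 606) at the next steps, and Wnt4 was 133 CPM and then 385, 304 and 407 CPM (367 to 450.5). Wnt2 in LI ran the other way above 3 markers, from 19.1 CPM to 8.45 and 2.06 CPM, with 0 UMIs in the 160 cells with 6 markers or more. The markers were detected by UMIs, so the number also moves with depth, whose part was not tested.

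**Figure D3:**
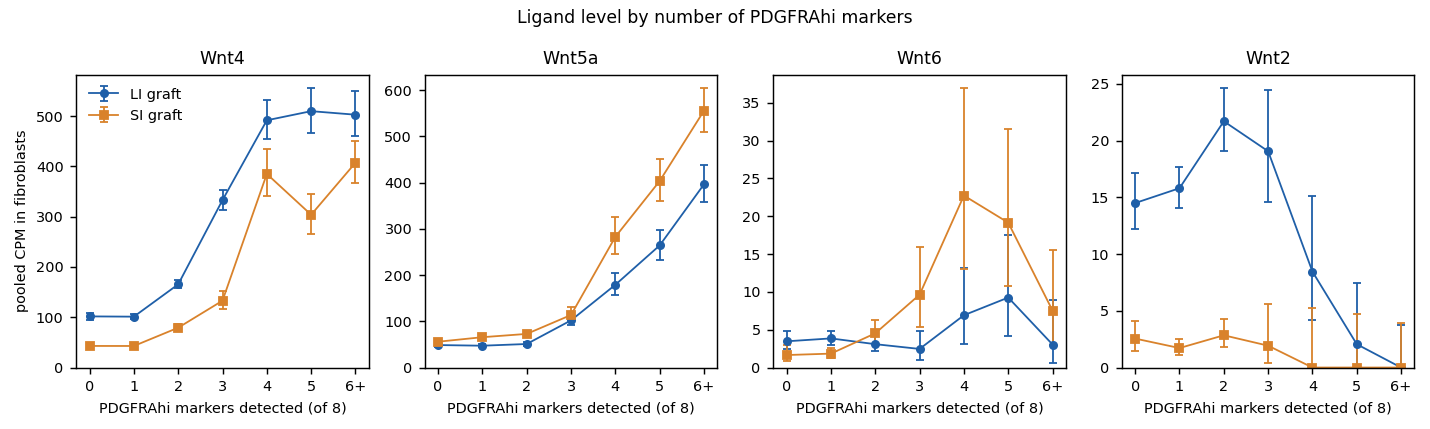
Pooled Wnt4, Wnt5a, Wnt6 and Wnt2 (CPM, with 95% Poisson intervals, on axes that differ between ligands) in fibroblasts by the number of the 8 PDGFRAhi markers detected, for each graft. In LI Wnt4 levels off from 4 markers on, at 492 to 509.8 CPM, while Wnt5a is 179 CPM with 4 markers and 396 CPM with 6 or more.

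The cells just outside the gate held much Wnt4. FB near the gate had 333 CPM in LI, 1.50-fold below PDGFRAhi FB (log2 0.59, 0.47 to 0.70), and 133 CPM in SI, 2.76-fold below. For Wnt5a the step was 2.65-fold (LI) and 3.76-fold (SI). Within PDGFRAhi FB, detection of 1 ligand told little of the other: after thinning, Wnt5a was found in 40.2% (34.4 to 46.3) of LI cells with Wnt4 and 37.7% (31.8 to 44.0) of those without, and in 55.2% and 48.2% of SI cells, with overlapping intervals. In LI Fgfr2 FB it was found in 10.8% (8.17 to 14.0) of Wnt4-positive and 5.57% (4.27 to 7.13) of Wnt4-negative cells.

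PDGFRAhi FB were also split by UMIs of Cd9 and Thbd, which the study used to tell apart subsets of colonic PDGFRAhi FB, after thinning. In LI Wnt4 lay between 525 and 553 CPM in all 4 combinations, with overlapping intervals. In SI Wnt4 was 568 CPM (466 to 685) in cells with Thbd and no Cd9 and 326 CPM (249 to 419.7) in those with Cd9 and no Thbd. Wnt5a did not differ beyond its intervals between those 2 groups, at 443 and 397 CPM.

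Clusters built with the Wnt ligands left out of the genes used to group cells, 22 in each library, gave a finer picture than the gates. The grouping used the same cells, so these values are descriptions with no test. The PDGFRAhi clusters, led by Bmp7, Sox6, Bmp3 and Bmp5 among others, held 444 of the 546 gated LI cells and 267 of the 374 gated SI cells. They had 569 CPM of Wnt4 and 307 CPM of Wnt5a in LI (687 cells) and 438 and 454 CPM in SI (364 cells).

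Wnt4 was nonetheless highest in other clusters. In LI a cluster of 94 cells led by Nrg1 and Agt, with Adamdec1 also among its leading genes, had 810.4 CPM (736 to 890) of Wnt4 and 99.9 CPM of Wnt5a. In SI a cluster of 194 cells led by Igfbp3, Sertm1 and Agt had 673 CPM (625 to 724) of Wnt4 and 61.2 CPM of Wnt5a, while the larger Fgfr2 clusters of SI (794 and 581 cells) had 77.7 and 38.7 CPM of Wnt4, below the 120 CPM of 1 smooth muscle cluster. By their markers both were Fgfr2 FB, although Nrg1 is a PDGFRAhi marker. Of their cells, 9 (LI) and 7 (SI) passed the PDGFRAhi gate, and 26 and 23 more were FB near that gate. Those gated as Fgfr2 FB numbered 44 and 133. Agt encodes angiotensinogen and Adamdec1 a metalloprotease, and Wnt4 itself was among the 10 leading genes of each cluster.

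**Figure D4:**
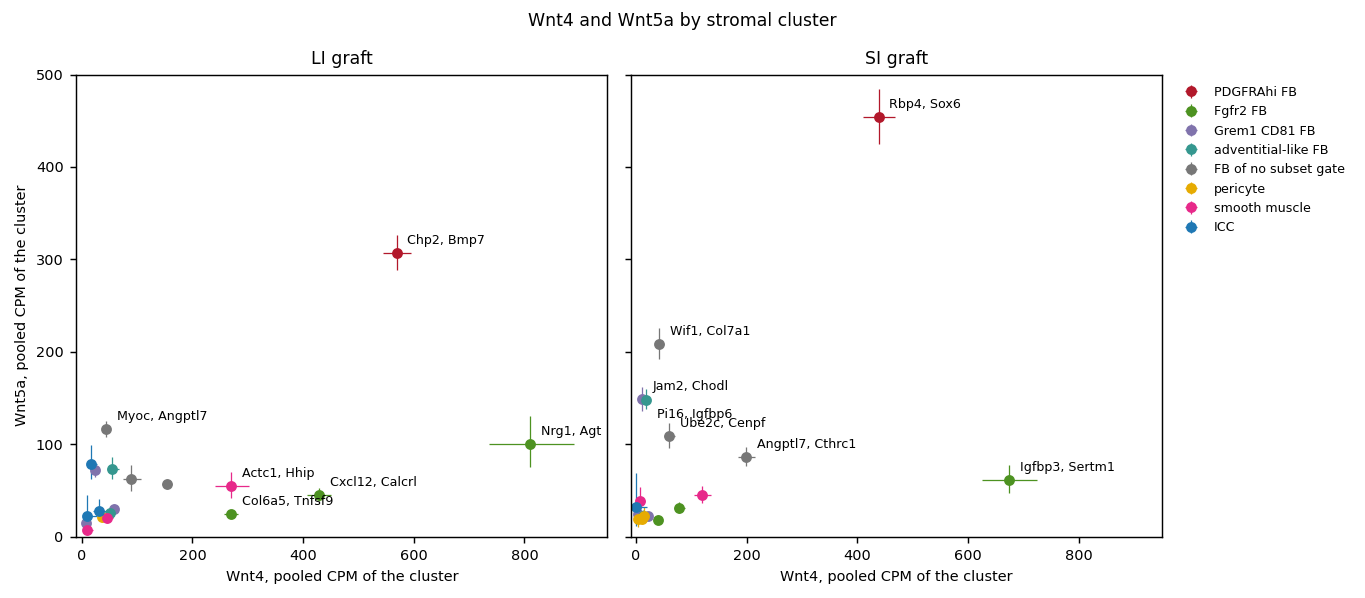
Pooled Wnt4 (x axis, CPM) against pooled Wnt5a (y axis, CPM) for each stromal cluster of either library, coloured by its class, with 95% Poisson intervals and, for some, the first leading genes. Clusters of immune, epithelial or mesothelial markers and unnamed ones are not drawn. The clusters highest in Wnt4, at 810.4 CPM (LI) and 673 CPM (SI), have 99.9 and 61.2 CPM of Wnt5a, and the PDGFRAhi clusters are the ones high in both.

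Wnt5a outside the PDGFRAhi clusters was highest in a few clusters. In SI a cluster of 522 cells led by Wif1 and Col7a1 had 208 CPM (193 to 225), and Wif1 encodes a secreted Wnt inhibitor. It was given no subset name, but PDGFRAhi FB was its best-scoring class, Bmp7 was among its leading genes, and it held 58 of the 374 gated PDGFRAhi FB and 60 FB near the gate. The SI adventitial-like cluster of 710 cells led by Pi16 and Igfbp6 had 148 CPM (138 to 159). Among Grem1 CD81 FB, the SI cluster led by Jam2, Chodl and Kcnn3 had 149 CPM (136 to 162) while the SI clusters led by Cpz and Ackr4 and by Saa3 and C3 had 24.8 CPM (21.0 to 29.2) and 22.0 CPM. In LI the Grem1 CD81 clusters had 72.4 CPM (64.3 to 81.2) in the one led by Kcnn3 and Jam2, 30.2 CPM in the one led by Areg and Ereg and an interval of 12.0 to 18.4 CPM in the one led by Fmo2 and Cpz. The LI cluster of 1132 cells led by Myoc and Angptl7 had 116 CPM of Wnt5a and also the highest Wnt5b of the LI clusters, 75.6 CPM (68.9 to 82.7). The Wif1-led SI cluster was also the highest for Wnt6, with 21.8 CPM (16.9 to 27.7), against 6.96 CPM (3.80 to 11.7) in the SI PDGFRAhi cluster.

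Wnt2 was highest in LI in 1 of the 2 clusters named adventitial-like. The cluster of 460 cells led by Cthrc1, Ptx3 and Prg4 had 73.5 CPM (66.7 to 80.7). It was named by its mean marker score, with no marker of that class among its leading genes. The gates put 120 of its cells in adventitial-like FB and 164 in FB of no subset gate. The next cluster had 21.1 CPM (13.9 to 30.6). The other adventitial-like cluster, with Scara5 among its leading genes, had 8.14 CPM, below the 15.1 and 18.5 CPM of the larger LI Fgfr2 clusters. In the Cthrc1-led cluster non-canonical ligands made up 53.2% of ligand UMIs. Its leading genes included Sfrp4, a secreted Wnt antagonist.

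Between grafts, all fibroblasts were compared by the same ratio, LI over SI. Wnt4 was 160.4 CPM in LI and 77.7 CPM in SI, a log2 ratio of 1.04 (0.97 to 1.10). Wnt2 was 16.4 and 2.02 CPM, 8.11-fold higher in LI (2.52, 2.27 to 2.77), and Wnt5b was 37.1 and 18.7 CPM (0.95). Wnt11 was 9.89 and 5.51 CPM (0.74). In the opposite direction Wnt5a was 67.6 and 92.7 CPM (-0.45, -0.52 to -0.38) and Wnt9a was 5.46 and 11.9 CPM (-0.99). Wnt2b at 7.07 and 7.61 CPM and Wnt6 at 3.67 and 3.72 CPM had intervals that held 0. Thus 4 ligands were higher in LI and 2 were higher in SI by more than counting error, each in 1 library.

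For 4 ligands the difference ran through all fibroblast classes. Wnt4, Wnt5b and Wnt2 were higher in LI in 5 of the 5 fibroblast classes, and Wnt5a was higher in SI in 5 of 5. For Wnt4 the log2 ratio ran from 0.45 in PDGFRAhi FB to 1.67 in adventitial-like FB, and for Wnt5b from 0.50 in adventitial-like FB to 2.27 in Fgfr2 FB. For Wnt2 it ran from 1.42 in adventitial-like FB to 3.91 in Fgfr2 FB, where the SI level rested on 2 UMIs. Wnt6 differed by more than counting error in PDGFRAhi FB, where it was lower in LI by a log2 of -1.17 (-1.90 to -0.44), and in no other fibroblast class. That difference was not seen between the PDGFRAhi clusters, with 6.02 CPM (3.73 to 9.21) in LI and 6.96 CPM (3.80 to 11.7) in SI. Wnt9a was higher in SI in 3 of 5 classes and Wnt11 higher in LI in 3 of 5. Wnt2b, whose ratio over all fibroblasts held 0, was higher in SI in 3 of 5 classes, down to -0.78 in adventitial-like FB, and higher in LI in Fgfr2 FB (0.54, 0.13 to 0.97).

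**Figure D5:**
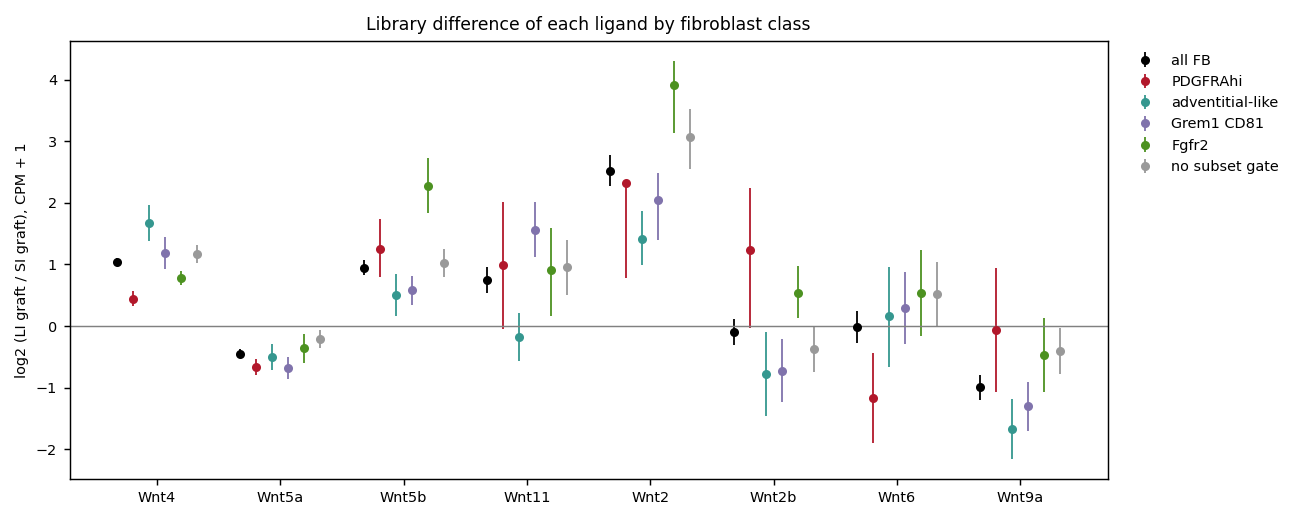
Log2 ratio of pooled CPM, LI graft over SI graft, of each ligand in all fibroblasts and in the fibroblast classes, with 95% intervals for counting error. Values above 0 are higher in LI: Wnt4, Wnt5b and Wnt2 lie above 0 and Wnt5a lies below 0 in every fibroblast class. Wnt2 had no UMI in SI PDGFRAhi FB, so its point there rests on the added 1 CPM and has no upper limit.

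Of 8603 genes with at least 10 CPM in all fibroblasts of 1 graft, 162 (1.88%) were higher in LI by a log2 of at least 1 and 139 (1.62%) were lower. Of the 5 ligands that passed the level, Wnt4 and Wnt2 were higher by that size and 0 were lower. Wnt2 passed only through the LI graft and Wnt9a only through the SI graft.

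The grafts held cells of both sexes, and the mixture differed, so each ratio was repeated by the sex of the cell. Fibroblasts with an Xist UMI and no UMI of 4 Y-linked genes numbered 6164 (LI) and 3108 (SI), and those with a Y-linked UMI and no Xist numbered 644 and 1257. Since the LI library pooled several grafts, the sex of a cell and the embryo it came from cannot be told apart. The log2 ratio of Wnt4 was 1.29 in female and 0.86 in male cells, that of Wnt2 2.60 and 1.84, and that of Wnt9a -0.95 and -1.34. For Wnt5a it was -0.71 (-0.79 to -0.63) in female and -0.12 (-0.30 to 0.06) in male cells. Within male cells it was 0.14 (-0.09 to 0.37) in other FB and 0.64 (0.31 to 0.95) in PDGFRAhi FB, which were 26 of 644 male fibroblasts in LI and 100 of 1257 in SI. For Wnt5b it was 0.93 in female and 0.27 (-0.06 to 0.60) in male cells. Over all fibroblasts, the higher Wnt5a of SI and the higher Wnt5b of LI were thus beyond counting error in female cells and not in male cells, and the difference between the sexes was not tested. In LI male PDGFRAhi FB, 26 cells, Wnt5a was 684 CPM (561 to 826), above the 439.6 CPM of the 100 SI male cells, the reverse of the female cells. In the same cells Wnt5b was higher in LI, by a log2 of 2.53 (0.91 to 4.12).

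Wnt11 and Wnt2b moved most with the sex of LI cells. Wnt11 was 30.9 CPM (26.6 to 35.6) in male and 5.52 CPM (4.78 to 6.33) in female LI fibroblasts, against 7.46 and 3.91 CPM in SI. Wnt2b was 1.48 CPM (0.676 to 2.81) in male and 8.58 CPM (7.65 to 9.58) in female LI fibroblasts, against 7.08 and 7.59 CPM in SI. The Wnt11 difference between grafts, a log2 of 0.74 over all fibroblasts, was 0.41 (0.08 to 0.74) in female and 1.91 (1.56 to 2.27) in male cells.

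Interferon-γ can induce MHC class II genes in non-immune cells, and exposure to it was not measured here. Fibroblasts with UMIs of at least 3 of 4 such genes (Cd74, H2-Aa, H2-Ab1, H2-Eb1) numbered 663 in LI and 648 in SI. They had more Wnt11 than the rest in LI, 24.5 CPM (20.9 to 28.6) against 7.49 CPM (6.67 to 8.38), and not in SI, 6.18 and 5.37 CPM with overlapping intervals. Wnt4 in these cells was lower than in the rest in Fgfr2 FB and higher in Grem1 CD81 FB. In Fgfr2 FB it was 174 CPM with MHC class II and 275 CPM without (LI) and 76.5 and 169 CPM (SI), while in Grem1 CD81 FB it was 104 CPM with and 22.4 CPM without (LI) and 45.3 and 10.9 CPM (SI). PDGFRAhi FB with MHC class II were few, 21 (LI) and 17 (SI) cells. Their Wnt4 was 304 CPM (237 to 385) against 515 CPM without in LI, and 273 and 373 CPM with overlapping intervals in SI. Their Wnt5a was lower in LI, 168 against 278 CPM, and higher in SI, 750 against 409 CPM. Such a rule takes deeper cells, and the part of depth was not tested.

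Over the 18 points made by 9 classes and 2 libraries, the genes whose log2(CPM + 1) was most like each ligand were named from 9760 candidates. The points share cells, depth and library, so each Pearson r is a description. For Wnt4 they were Pcdh9 (r = 0.945), Tshz3 (0.919) and Col12a1 (0.906), and for Wnt5a Hpcal1 (0.901), Pmepa1 (0.897) and Lrrk1 (0.880). For Wnt2 they were Timp1 (0.902), 1500015O10Rik (0.881) and Sfrp2 (0.866), for Wnt2b Vegfc (0.923), Prdm6 (0.916) and Fzd1 (0.907), for Wnt11 Abhd5 (0.857), Herpud1 (0.851) and Prlr (0.851), and for Wnt5b Tbc1d17 (0.858), 6330403K07Rik (0.828) and Aga (0.824). Wnt6 and Wnt9a did not reach 10 CPM in a class of both libraries. Of the ligand pairs, Wnt4 and Wnt6 had the highest r, 0.828, and Wnt5a and Wnt2 the lowest, 0.013.

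The machinery around the ligands was read from lists of pathway genes, keeping those with at least 10 CPM in a fibroblast class of both libraries. Of 11 further Wnt ligands 0 reached that level. Of the secretion genes Wls, which carries Wnts to the cell surface, was 229 CPM in LI PDGFRAhi FB and 166 CPM in other FB (log2 0.46), and 153 and 136 CPM in SI (0.17). Of 16 receptors 11 reached the level, and 0 were higher and 1 was lower in PDGFRAhi FB by a log2 of at least 1 in both grafts. Of the 8887 genes that reached the level, 3.5% were higher and 3.69% were lower in both. The lower receptor was Fzd4 (-1.93 LI, -1.85 SI), which reached the level in both grafts only through other FB, so that its difference was built in. Fzd2 was 0.38 and 1.32, Fzd1 -0.39 and -1.51 and Lrp6 -0.93 and -0.56.

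Of the 10 targets of β-catenin 2 reached the level, Axin2 (log2 -0.16 LI, 0.65 SI) and Nkd1 (0.07, 0.26), so neither passed a log2 of 1. Of 13 secreted modulators 9 did. Wif1, which binds Wnts and blocks them, was higher in PDGFRAhi FB by 3.96 (36.5 against 1.40 CPM) in LI and by 2.65 (50.5 against 7.20 CPM) in SI. Of these 9, 1 was higher and 4 were lower in both grafts. Wif1 reached the level in LI through PDGFRAhi FB alone, Rspo1 in both grafts and Sfrp4 in SI only through other FB, so that a difference was built into their selection and the counts are not read against all genes. The 4 lower in both were Rspo1 (-1.93, -3.61) and Rspo3 (-2.02, -1.73), which amplify canonical signals, and Sfrp1 (-1.91, -2.14) and Sfrp4 (-1.75, -2.70), which bind Wnts. Sfrp1 remained at 282 CPM in LI and 530.3 CPM in SI PDGFRAhi FB, against 1063 and 2338 CPM in other FB.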

How the data were processed

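Reads had been aligned to mm10 with Cell Ranger 3.1.0 (file headers), and Seurat 3 is also named in the submitters' processing notes. The authors deposited, per library, raw counts of UMIs per gene and barcode, whole numbers with no normalization. No author cell annotation was used here, and no columns were left unmapped. The study states fewer colonic graft cells than the LI table holds barcodes.

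Cells with 500 genes or more and no more than 10% of UMIs from mitochondrial genes were classed by marker gates. The members, the marker lists and the pathway lists were chosen with earlier results of these data known, and gate and cluster naming thresholds were set after marker detection had been seen. Counts were summed per class and library and given as CPM of all UMIs, with 95% exact Poisson, Clopper-Pearson or binomial-split intervals. A class without a UMI was compared at a floor of 3 counts over the class. Ratios had a pseudocount of 1 CPM. With 1 library per group no test was made. Doublets were kept: Scrublet (own threshold) called 0 barcodes in either library, so removal of the highest scores was an alternative only. Clusters were made per library (Leiden on 30 components of 2000 variable genes, 20 neighbours, resolution 1, Wnt ligands left out). The genes named were the 8 ligands in every class, the 3 genes most like each ligand with at least 10 CPM in a class of both libraries, and up to 4 genes per pathway list with the largest ratio of PDGFRAhi FB over other FB in either direction. Rspo3, outside this rule, was named after its values were seen.

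Gene positions came from GENCODE vM21 (GRCm38) and promoters from RefSeq (GRCm38.p6). The tools were scanpy 1.11.5 (Scrublet), igraph 0.11.9, scipy 1.17.1 and numpy 2.4.6 under Python 3.11.15 and, for TMM factors, edgeR 4.0.16, and the ratio and interval steps were tested on simulated data. Alternatives were looser and stricter cell filters, doublet removal, stricter gates, clusters in place of gates, mean per-cell CPM, thinning to 2000 UMIs, female cells only, a pseudocount of 5 CPM and TMM factors.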

Additional observations from a re-analysis of the deposited data

How the results depend on the processing

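No paired analysis was possible because each graft gave 1 library and the labels carry no replicate numbers. The number of ligands highest in the same class in both grafts was 5 to 7 over the alternatives (6 as reported), and the number higher in the LI graft was 4 to 6 (4 as reported). All 6 LI over SI ratios and 12 PDGFRAhi ratios whose intervals lay off 0 kept their sign under all 10 alternatives, and of 80 and 160 recomputed ratios 69 and 129 stayed within their interval. Of the ratios whose intervals held 0, 7 and 7 recomputed values changed sign, among them Wnt11 in PDGFRAhi FB of female LI cells (0.49 against -0.51). Thinning to 2000 UMIs left 4 of the 12 PDGFRAhi intervals holding 0 (Wnt2 and Wnt9a in SI, Wnt5b and Wnt6 in LI). The mean of per-cell CPM and female cells each left 2 (Wnt2 in SI, Wnt5b in LI), TMM factors 2 (Wnt5b and Wnt6 in LI), and 1 marker more (Wnt6 in LI), the stricter cell filter (Wnt2b in LI) and the looser one (Wnt2 in SI) 1 each.

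The non-canonical share of PDGFRAhi FB rose to 98.5% (LI) and 98.2% (SI) with 1 marker more in the gate and to 98.5% and 98.8% with named clusters, and fell to 96.5% in SI female cells and, with Wnt10a counted as canonical (chosen after seeing the data), to 95.8% in SI. That of other FB in the LI graft was 87.3% with 1 marker more, 87.1% with clusters, 88.8% as a mean of per-cell CPM, 87.7% after thinning and 85.2% in female cells. In the SI graft it was 86.8% with clusters, 86.7% as a mean of per-cell CPM and 85.7% in female cells. It stayed below that of PDGFRAhi FB in each of these. The gates, the 51 SI ICC and the 1 library per graft limit what the levels can show, and the causes of these shifts were not tested.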

Other observations

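Of the Wnt ligand genes outside the 8, Wnt10a and Wnt16 were picked out after their values were seen, because each was found almost wholly in 1 graft. Wnt16 had 204 UMIs in LI fibroblasts (4.33 CPM) and 2 UMIs in SI fibroblasts. It reached 6.95 CPM in LI Fgfr2 FB and 8.81 CPM in LI smooth muscle, and 0.117 CPM in LI Grem1 CD81 FB. Wnt10a, a canonical ligand, had 76 UMIs in SI fibroblasts (2.19 CPM) and 1 UMI in LI fibroblasts. It was highest in SI PDGFRAhi FB at 14.1 CPM, followed by SI Fgfr2 FB at 3.58 CPM and smooth muscle at 1.89 CPM. These are 1 library per graft, and kit, embryo and segment cannot be told apart.

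A gate on mesothelial markers, cells of the outer lining, took 19 SI and 23 LI cells. Of these, 18 SI cells lay in a fibroblast cluster of no subset and 21 LI cells in a mesothelial cluster, so the grafts are not compared. In the SI cells Wnt4 was 552 CPM (459 to 658) and Wnt5a 193 CPM (139.6 to 259.8). In the LI cells Wnt4 was 65.4 CPM (29.9 to 124) and Wnt5a 159.9 CPM (100.2 to 242).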
